A study of Mus musculus with 7 samples.

Results

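The genes described here encode the LKB1 kinase complex and the AMP-activated protein kinase (AMPK) that it switches on. They were measured in pancreatic islets of control mice and of mice in which inducible deletion of Wnt4 was aimed at β-cells. The 10 genes, of 22911 named on the array, are Cab39l, Cab39, Stk11, Strada, Prkaa1, Prkaa2, Prkab1, Prkab2, Prkag1 and Prkag2, and were taken by gene symbol, with every array probe whose transcript accession maps to them. They are read by 15 of 56605 non-control probes: 7 for the LKB1 complex and 8 for AMPK subunits.

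Islet RNA from single-colour (Cy3) expression arrays was compared between 3 control arrays (replicates 2, 3 and 4) and 4 Wnt4βKO arrays (replicates 1 to 4). All animals carried Wnt4fl/fl. Wnt4βKO animals also carried the tamoxifen-inducible Pdx1CreER transgene (Pdx1CreER Tg+), whereas controls lacked it (Pdx1CreER Tg-) and are tagged WT in the labels although their Wnt4 alleles were floxed. Both groups had been crossed to C57BL/6J, received tamoxifen (50 mg/mL) by gavage at 4 to 5 weeks of age, and gave islets at 7 weeks; the study's methods describe the array animals as males. The sample titles also carry the code w11, whose meaning is not given in the sources used here, and the age is that of the labels. Since no control carried the transgene, an effect of Cre and an effect of Wnt4 loss cannot be told apart on these arrays. The study reports a normal response to glucose in Pdx1CreER;Wnt4fl/+ mice, which were not among the arrays. The Pdx1 promoter drives Cre mainly in β-cells, and the islets also held cells in which it is not active. The labels do not say whether an array held the islets of 1 animal or of several, so that p-values measure the spread between these samples.

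LKB1, encoded by Stk11, is a serine/threonine kinase that works in a trimer with the pseudokinase STRAD and the scaffold MO25. MO25α is encoded by Cab39 and MO25β by Cab39l; the scaffold holds STRAD in the closed form that activates LKB1. LKB1 phosphorylates the activation loop of the AMPK α subunit (Prkaa1, Prkaa2) and of a family of related kinases. AMPK also needs a β subunit (Prkab1, Prkab2), which bridges the trimer and binds glycogen, and a γ subunit (Prkag1, Prkag2), which senses AMP, ADP and ATP. In β-cells, where glucose raises ATP and thereby insulin release, AMPK is active at low glucose, and LKB1 and AMPK are known for roles in cell size, polarity, and secretion. Their activity is set largely by phosphorylation and nucleotides, neither of which an mRNA array measures.

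In the RefSeq promoter table (GRCm38.p6), 15.4% of all 27025 genes had more than 1 start site. Of the 10 genes 2 did, which is near that share, and a link to the array values was not tested. These 2 were Cab39l and Prkag2, which held the only tested probes of these genes past an unadjusted threshold. Their start sites are shown from 60 bases before to 50 bases after, 5′ to 3′ on the gene's strand, with CpG dinucleotides, which mark many promoters of widely used genes, in capitals. Cab39l lies on the plus strand of chromosome 14 and Prkag2 on the minus strand of chromosome 5.
Cab39l start site 1, chr14:59440903-59441012: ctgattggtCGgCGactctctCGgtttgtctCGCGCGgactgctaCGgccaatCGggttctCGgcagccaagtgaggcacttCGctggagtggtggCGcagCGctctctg
Cab39l start site 2, chr14:59478891-59479000: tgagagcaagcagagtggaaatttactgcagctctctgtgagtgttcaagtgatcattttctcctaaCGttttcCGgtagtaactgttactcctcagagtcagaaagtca
Prkag2 start site 1, chr5:25100593-25100702: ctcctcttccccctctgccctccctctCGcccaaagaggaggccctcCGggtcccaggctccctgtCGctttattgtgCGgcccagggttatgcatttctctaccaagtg
Prkag2 start site 2, chr5:24995704-24995813: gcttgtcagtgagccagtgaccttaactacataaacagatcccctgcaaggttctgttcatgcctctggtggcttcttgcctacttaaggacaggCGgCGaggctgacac
Prkag2 start site 3, chr5:24908460-24908569: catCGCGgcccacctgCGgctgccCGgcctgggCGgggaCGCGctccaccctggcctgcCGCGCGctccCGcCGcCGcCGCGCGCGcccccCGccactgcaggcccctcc
Over the full 300 bases of the table, the first Cab39l promoter held 33 CpG and was 70% G and C, and the second held 3 CpG and was 45.7% G and C. The Prkag2 promoters held 25, 6 and 45 CpG. Of the 13 promoters of the 10 genes, 9 held at least 20 CpG, against 26.5% of all 32851 promoters, whose median was 7. The core motif of TCF/LEF, the DNA-binding partners of β-catenin, spelt CAAAG and searched on both strands, was present in 6 of 13 promoters against 53.9% of all. It occurred 2 times in the second Cab39l promoter, 0 times in the first, and 2, 0 and 1 times in the Prkag2 promoters. The probes could not be assigned to a start site, so the array values below are not tied to one of these sequences.

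The series as a whole showed few differences. Between 45.5% and 49.0% of non-control probes were well above background on an array, and 26153 probes so on at least 3 of 7 arrays were tested. Pairwise correlations of arrays were 0.962 to 0.984 across probes. Of the tested probes, 4 (0.0153%) passed an adjusted p of 0.05 and 1822 (6.97%) an unadjusted p of 0.05. Wnt4, which encodes the deleted Wnt ligand, was 71.3% of control (log2 fold change -0.49 ± 0.17 SE, limma unadjusted p = 0.0232, adjusted p = 0.651), its groups overlapped, and where its probe lies relative to the deleted part is not given in the sources used here. β-cell markers were present on every array, with Ins1 at 122% of control (limma unadjusted p = 0.0199) and a mean over the 10 markers of 11.59 to 11.71 in control and 11.57 to 11.84 in Wnt4βKO arrays on the log2 signal scale. RNA of acinar cells, which make digestive enzymes, moved with the groups: 22 of 26 tested markers were lower, 7 of them past the unadjusted threshold, and their mean was 13.34 to 13.48 in control and 12.23 to 13.22 in Wnt4βKO arrays. Of 6 tested duct-cell markers 5 were lower, 1 of them past that threshold (Muc1, -0.78 ± 0.33, limma unadjusted p = 0.0494), with means of 7.58 to 7.65 and 7.12 to 7.62. All 7 tested immune-cell markers were higher, 1 of them past that threshold, with means of 8.06 to 8.28 in control and of 8.14, 8.24, 8.47 and 9.31 in Wnt4βKO replicates 1 to 4. Replicate 4 stood above the others, and replicates 1 and 2 lay within the control range. Ptprc, a defining marker, read 6.15 to 6.54 in control and 5.95 to 7.49 in Wnt4βKO arrays, lowest on replicate 1 and highest on replicate 4. The parts of these cells in the results below were not tested except where a value is given.

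Of the 15 probes, 13 passed the filter on dim probes and were tested, and these 13 were well above background on all 7 arrays. One probe each of Strada and Prkaa2 was not tested, being well above background on 0 and 1 arrays. Without adjustment, 2 of the 13 tested probes passed 0.05 (15.4%, against 6.97% of all tested probes), and both were lower in Wnt4βKO islets (3.63% of all tested probes were called lower and 3.34% higher). These were 1 of 2 Cab39l probes and the Prkag2 probe. Cab39l was picked by the study on these same arrays, so that its probe is not independent evidence in these shares. The same 2 probes had groups that did not overlap, against 7.24% of all tested probes (3.7% lower and 3.54% higher). No tested probe of these genes passed the adjusted threshold by limma, which 0.0153% of all did; the lowest adjusted p was 0.612. In all, 10 of the 13 were lower and 3 higher, with a median log2 fold change of -0.10, against 0.003 over all tested probes, of which 49.1% were lower. With the acinar mean as a covariate 5 were lower and 8 higher, with a median of 0.02. Across the other alternatives 7 to 11 of the 13 were lower.

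**Figure D1:**
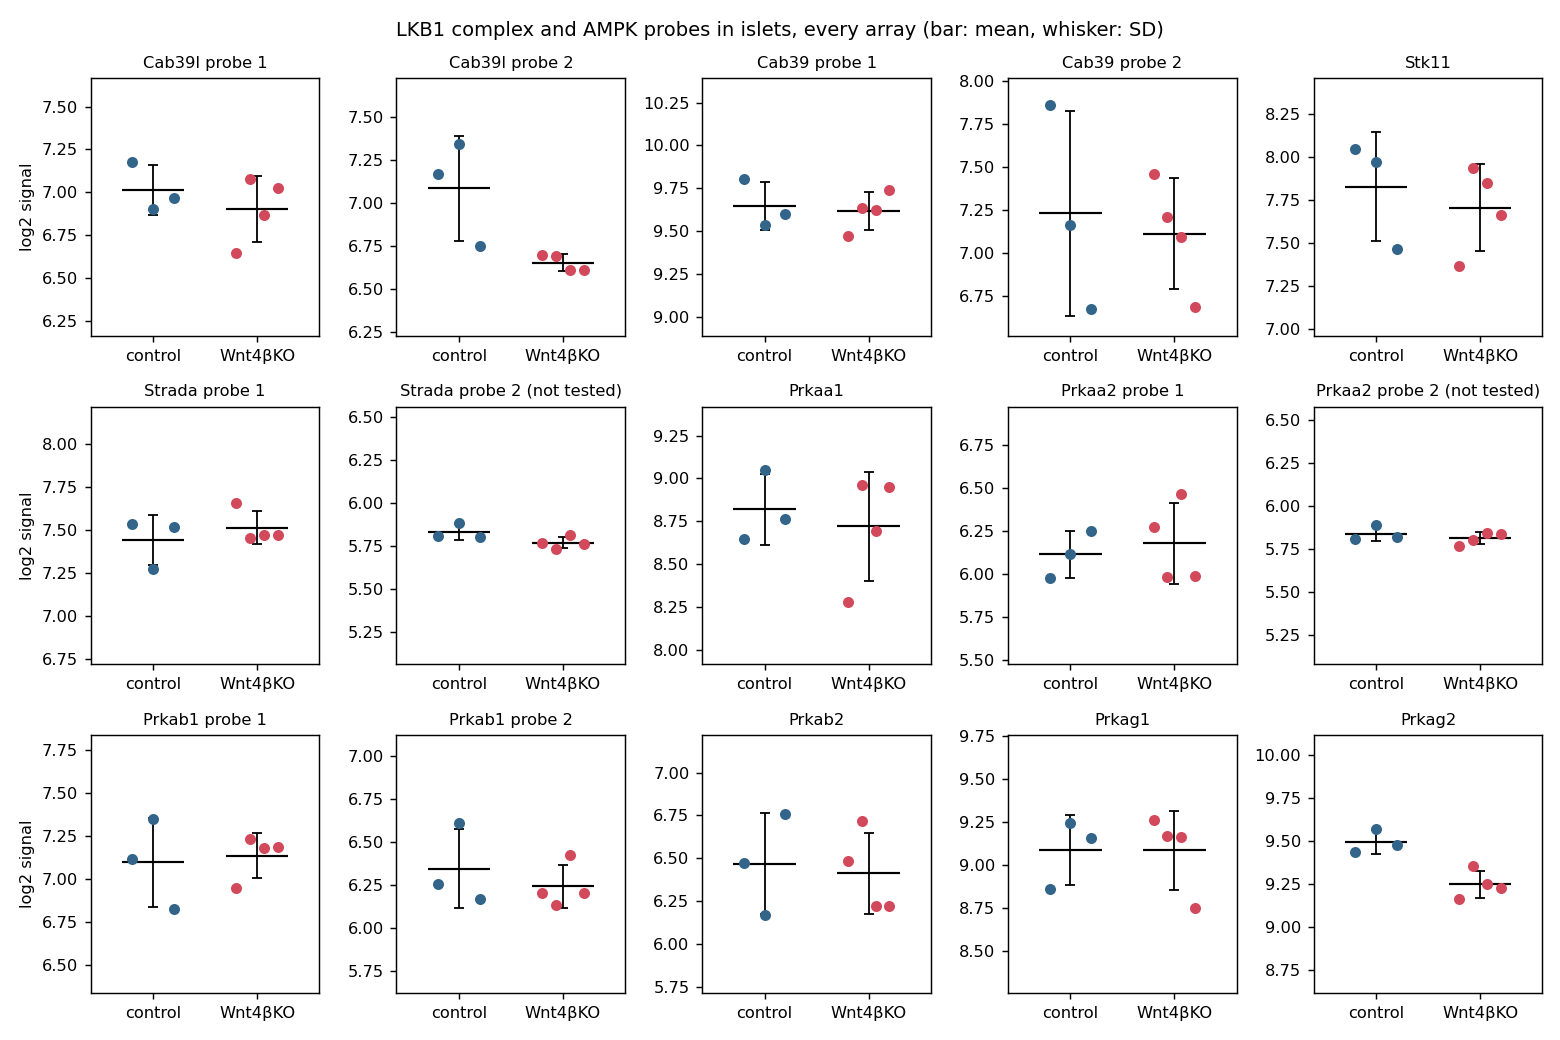
Normalized log2 signal (y axis; every panel spans the same number of log2 units) of each of the 15 probes on the 3 control (blue) and 4 Wnt4βKO (red) arrays, with points in the order of replicate number, bars at means and whiskers at SD. The groups stand apart only at Cab39l probe 2 and Prkag2 among the 13 tested probes; the 2 untested probes sit near 5.8 on every array.

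Cab39l, the MO25β gene and a transcript the study itself singled out on these samples, gave different values at its 2 probes. The values of a probe are log2 signals after normalization, which are not comparable between probes. At probe 2 (A_55_P2001948) the control arrays 2, 3 and 4 read 7.17, 7.35 and 6.75, and the Wnt4βKO arrays 1 to 4 read 6.70, 6.69, 6.61 and 6.61. Control replicates 2 and 3 were high, whereas control replicate 4 lay only 0.048 above the highest Wnt4βKO array. The log2 fold change was -0.43 ± 0.14 (SE, 95% confidence interval -0.76 to -0.11, n = 3 and 4), or 74.0% of control, with an unadjusted p of 0.0150 and an adjusted p of 0.616 by limma. The spread was unequal, with an SD of 0.307 in control and 0.049 in Wnt4βKO arrays. In islet RNA, fewer cells of a type and less RNA per cell cannot be told apart.

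Cab39l probe 1 (A_55_P2000818) read 7.18, 6.90 and 6.97 in control and 6.65, 7.08, 6.87 and 7.03 in Wnt4βKO arrays. The groups overlapped, and control replicate 3, the highest array at probe 2, was the lowest control at probe 1. The log2 fold change was -0.11 ± 0.13 (95% confidence interval -0.40 to 0.18, limma unadjusted p = 0.403), an interval that includes 0 and excludes the estimate of probe 2. Both probes carry the same transcript accession. Within an array, probe 2 minus probe 1 was -0.01, 0.45 and -0.22 in control and 0.05, -0.39, -0.26 and -0.41 in Wnt4βKO arrays, a difference between groups of -0.32 (exact permutation p = 0.229, 0.476 after adjustment over 5 pairs). With 35 regroupings of 3 and 4 arrays, 0.0571 is the smallest p this two-sided test can give, so that no pair could pass 0.05.

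The value at Cab39l probe 2 depended on the control arrays. Without control replicate 2 it was -0.40 (limma unadjusted p = 0.0511), without control replicate 3 -0.30 (0.0516) and without control replicate 4 -0.60 (0.000379). The slide holds the arrays in 2 rows. In row 1, which held control replicate 4 and Wnt4βKO replicates 1 and 2, the difference was -0.05, and in row 2, with 2 arrays of each group, it was -0.65. With row as a block it was -0.41 (limma unadjusted p = 0.0218). With the acinar mean of each array as a covariate it was still -0.43, but its SE was 0.21 in place of 0.14. It then no longer passed the unadjusted threshold (limma unadjusted p = 0.0799), which 2.43% of all tested probes did in place of 6.97%. The acinar means of the 2 groups did not overlap, so that this covariate is hard to separate from group. The probe is dim: its median signal was 2.23 to 7.29 times its local background, highest on control replicate 3. That array was also highest in this ratio at most other probes of these genes. It had the highest share of probes well above background of all arrays, at 49.0%.

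Cab39, which encodes the other MO25 isoform, differed by less than the spread between arrays at both probes. Probe 1 read 9.81, 9.54 and 9.60 in control and 9.48, 9.64, 9.62 and 9.74 in Wnt4βKO arrays, a log2 fold change of -0.03 ± 0.10 (95% confidence interval -0.26 to 0.20). Probe 2 had the widest control spread of the 13 tested probes (7.86, 7.16 and 6.67, SD 0.596) and read 7.46, 7.21, 7.09 and 6.69 in Wnt4βKO arrays, for -0.12 ± 0.29. Its value turned from -0.40 without control replicate 4 to 0.20 without control replicate 2. Cab39l probe 1 minus Cab39 probe 1, each the brighter of its gene by the mean over the 7 arrays, was nearly equal in the 3 control arrays (-2.63, -2.64 and -2.63) and ranged from -2.83 to -2.56 in Wnt4βKO arrays, on both sides of the controls. The group difference of -0.08 had an exact permutation p of 0.286 (0.476 adjusted over 5 pairs). With Cab39l probe 2 in its place, a choice made after seeing the data, the difference was -2.64, -2.19 and -2.85 in control and -2.77, -2.95, -3.01 and -3.13 in Wnt4βKO arrays. The groups overlapped and differed by -0.40 (exact permutation p = 0.114, outside the adjustment over pairs).

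Stk11, the kinase of the complex, read 8.05, 7.97 and 7.46 in control and 7.37, 7.94, 7.85 and 7.67 in Wnt4βKO arrays. Its log2 fold change was -0.12 ± 0.19 (95% confidence interval -0.56 to 0.31), so that neither a fall of a size seen at Cab39l probe 2 nor a rise was excluded by the interval. Strada, the pseudokinase that binds LKB1, read 7.53, 7.27 and 7.52 in control and 7.66, 7.45, 7.47 and 7.47 in Wnt4βKO arrays at its tested probe, a log2 fold change of 0.07 ± 0.09 (95% confidence interval -0.15 to 0.29). Its other probe read 5.81 to 5.89 in control and 5.74 to 5.82 in Wnt4βKO arrays, in both groups not well above background. Stradb, the gene of the second STRAD isoform, had 2 probes that were well above background on 2 and 0 arrays and was not tested.

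**Figure D2:**
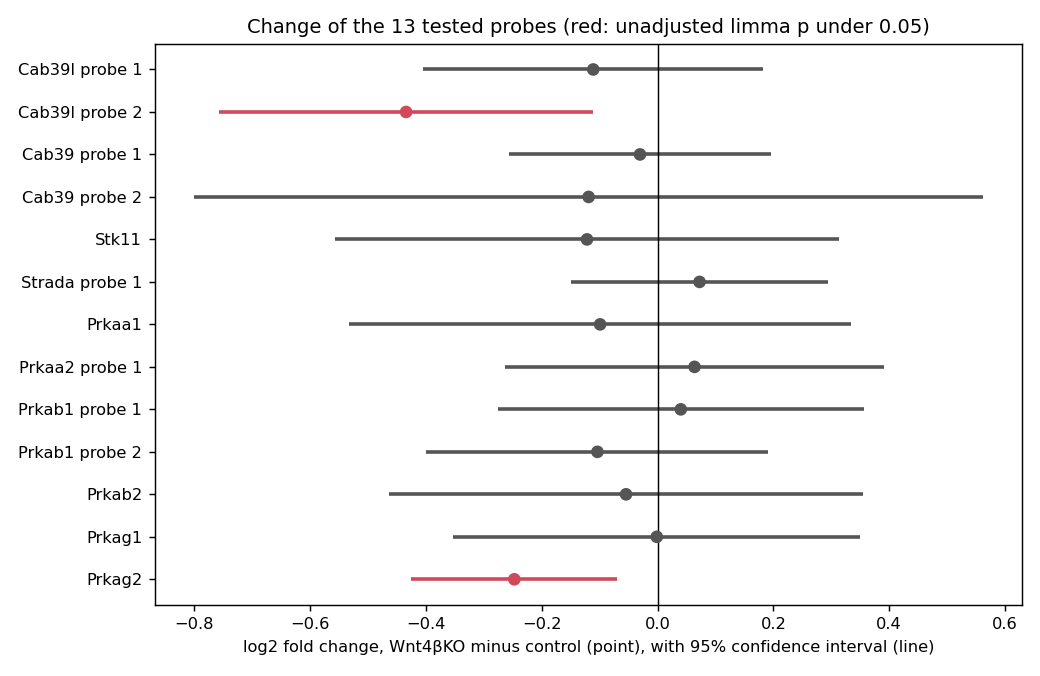
Log2 fold change of Wnt4βKO over control (x axis) for each of the 13 tested probes, with points at limma estimates and lines spanning 95% confidence intervals; red marks an unadjusted p under 0.05. The intervals of Cab39l probe 2 and Prkag2 lie below 0 and the other 11 include it, the widest being that of Cab39 probe 2.

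Among the AMPK subunits, only the γ2 gene Prkag2 passed the unadjusted threshold. Its probe (A_55_P2013296) read 9.44, 9.57 and 9.48 in control and 9.16, 9.36, 9.25 and 9.23 in Wnt4βKO arrays. Every Wnt4βKO array lay below every control array, with 0.083 between the closest pair, and the SDs were 0.069 and 0.081. The log2 fold change was -0.25 ± 0.08 (95% confidence interval -0.43 to -0.07), or 84.2% of control, with an unadjusted p of 0.0129 and an adjusted p of 0.612 by limma. The difference was -0.22 in slide row 1 and -0.27 in row 2. Leaving out any 1 array gave -0.28 to -0.21, with limma unadjusted p-values of at most 0.0413. With the acinar mean as a covariate, which is hard to separate from group, it was -0.16 ± 0.10 (limma unadjusted p = 0.169). Several other settings also left it short of the threshold, as the plot of alternatives shows. Before normalization between arrays, signal was 22.7, 41.7 and 29.4 times local background in control and 25.0, 26.2, 24.7 and 22.9 times in Wnt4βKO arrays. The groups overlapped in this ratio, and also in log2 signal under scaling by the array median.

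Prkag1, the gene of the γ1 subunit, read 8.86, 9.24 and 9.16 in control and 9.26, 9.17, 9.16 and 8.75 in Wnt4βKO arrays. Its log2 fold change was -0.0014 ± 0.15 (95% confidence interval -0.35 to 0.35), an interval that still includes the Prkag2 estimate. Prkag2 minus Prkag1 within an array was 0.58, 0.33 and 0.32 in control and -0.10, 0.19, 0.09 and 0.48 in Wnt4βKO arrays. Wnt4βKO replicate 4 lay among the controls, and the group difference of -0.25 had an exact permutation p of 0.229 (0.476 adjusted over 5 pairs). A difference in response between the γ genes was therefore not shown. Prkag3, the γ3 gene, had 1 tested probe of 3, with values of 6.43 to 6.48 in control and 6.33 to 6.95 in Wnt4βKO arrays and a log2 fold change of 0.11 ± 0.14.

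The catalytic and scaffold subunits of AMPK differed by less than their spread. Prkaa1 (AMPKα1) read 8.64, 9.05 and 8.77 in control and 8.28, 8.96, 8.69 and 8.95 in Wnt4βKO arrays, with Wnt4βKO replicate 1 lowest, for a log2 fold change of -0.10 ± 0.19 (95% confidence interval -0.53 to 0.33). Prkaa2 (AMPKα2) read 5.98, 6.12 and 6.25 in control and 6.27, 5.98, 6.47 and 5.99 in Wnt4βKO arrays, for 0.06 ± 0.14 (95% confidence interval -0.26 to 0.39). This Prkaa2 probe was only 1.14 to 2.34 times its local background, which limits what it can show. The difference Prkaa2 minus Prkaa1 ranged from -2.93 to -2.52 in control and from -2.98 to -2.01 in Wnt4βKO arrays, 0.16 between groups (exact permutation p = 0.686, 0.743 adjusted over 5 pairs).

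Prkab1 (AMPKβ1) had probes that differed in sign. Probe 1 read 7.12, 7.35 and 6.83 in control and 6.95, 7.23, 7.18 and 7.18 in Wnt4βKO arrays, for 0.04 ± 0.14 (95% confidence interval -0.28 to 0.36). Probe 2 read 6.26, 6.61 and 6.17 in control and 6.20, 6.13, 6.43 and 6.20 in Wnt4βKO arrays, for -0.10 ± 0.13 (95% confidence interval -0.40 to 0.19). Control replicate 3 was the highest array at both, and both sets of groups overlapped. Prkab2 (AMPKβ2) read 6.47, 6.17 and 6.76 in control and 6.49, 6.72, 6.23 and 6.23 in Wnt4βKO arrays, for -0.05 ± 0.17 (95% confidence interval -0.46 to 0.35). The β pair, Prkab2 minus Prkab1, differed by -0.09 between groups (exact permutation p = 0.743, also after adjustment over 5 pairs). Leaving out single arrays moved this difference from -0.37 to 0.19, that of Prkaa2 minus Prkaa1 from -0.01 to 0.31, and that of Cab39l probe 2 minus probe 1 from -0.47 to -0.14. Prkag2 minus Prkag1 ran from -0.35 to -0.16 and Cab39l minus Cab39 from -0.13 to -0.04.

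**Figure D3:**
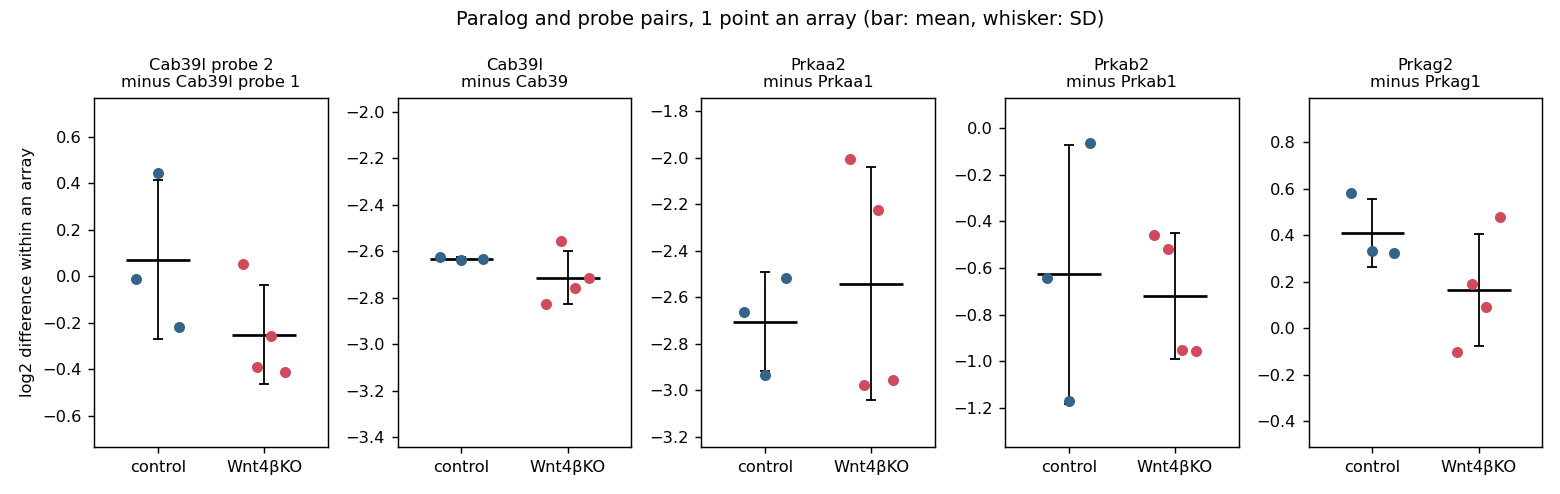
Difference in log2 signal between 2 probes of the same array (y axis; every panel spans the same number of log2 units) for the 5 pairs, by control (blue, 3 arrays) and Wnt4βKO (red, 4 arrays), with bars at means and whiskers at SD. The groups overlap in all 5 pairs, and the controls of Cab39l minus Cab39 have an SD of 0.0062.

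Across 20 processing alternatives, Cab39l probe 2 and Prkag2 were lower in all 20, but stayed past the unadjusted threshold in 15 and 13. Cab39l probe 2 ranged from -0.74, with no offset added after background correction, to -0.30, without control replicate 3. Prkag2 ranged from -0.28 to -0.16. Cab39l probe 1 was lower in 19 and past the threshold in 0. None of the other 10 tested probes passed it in any alternative. Under scaling by the array median, which took 2.95% of all tested probes past the threshold in place of 6.97%, neither Cab39l probe 2 (-0.49, limma unadjusted p = 0.0641) nor Prkag2 (-0.26, 0.266) passed.

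**Figure D4:**
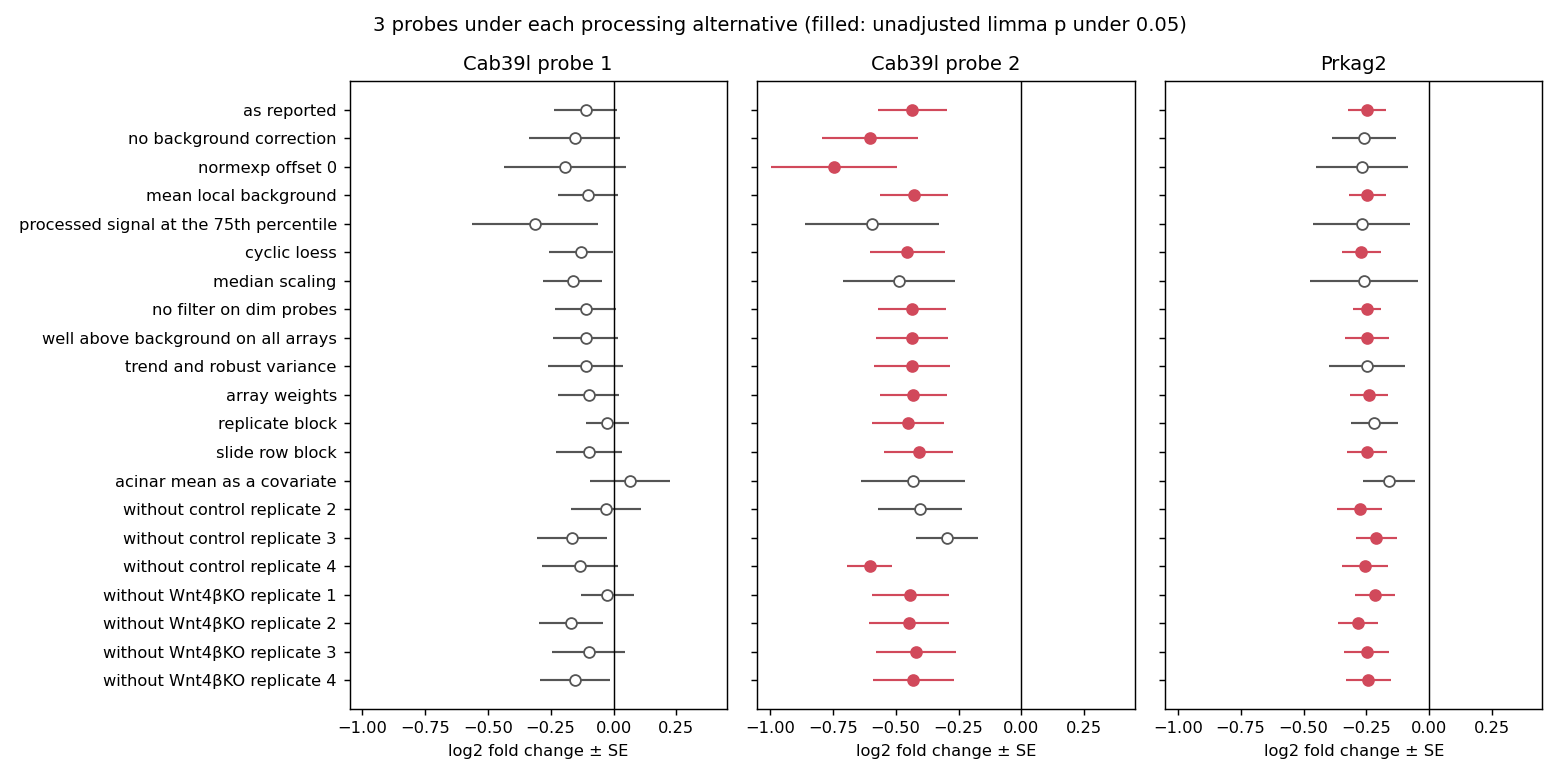
Log2 fold change (x axis, with SE as lines) of Cab39l probe 1, Cab39l probe 2 and Prkag2 as reported and under 20 alternatives (y axis); filled red points have an unadjusted limma p under 0.05. All points of Cab39l probe 2 and Prkag2 lie below 0, those of Cab39l probe 2 spreading from -0.74 to -0.30 and those of Prkag2 from -0.28 to -0.16.

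The genes whose values over the arrays were most like those of Cab39l probe 2 were Snx10, Rbm3 and Aldh9a1. Their root mean square differences from it over the 7 arrays, after centring, were 0.059, 0.075 and 0.080, against a deviation of 0.272 of the probe about its own mean. For probe 1, the nearest were Srrm1, Zfp639 and Ccnl1 (0.039, 0.041 and 0.042 against 0.158). These are the nearest of 19063 tested probes of other named genes, picked for likeness, and the lists of the 2 probes share no gene.

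The remaining genes of the pathway were read by 1 probe a gene, the brightest tested one. Of 96 listed genes 83 were tested, and 10 (12.05%, against 8.94% of all 13668 genes) passed the unadjusted threshold. Of these, 6 were lower and 4 higher, directions called in 4.43% and 4.51% of all genes. By limma, 0 of the 83 passed the adjusted threshold (0.0219% of all genes did), and the median log2 fold change was -0.03, against 0.008 over all genes. With the acinar mean as a covariate 2 of the 83 passed the unadjusted threshold, and with scaling by the array median also 2. Of all tested probes, 2.43% and 2.95% passed it under these settings, against 6.97% as reported. These shares count every probe rather than 1 probe a gene. Whether the fall was particular to the pathway genes was not tested.

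Among 15 upstream kinases, phosphatases and regulators of AMPK, 3 passed the unadjusted threshold. Sesn2, a stress-induced sestrin that interacts with AMPK and inhibits mTORC1, read 8.28, 8.39 and 8.19 in control and 9.05, 8.60, 8.66 and 8.84 in Wnt4βKO arrays, all above the controls (log2 fold change 0.50 ± 0.12, limma unadjusted p = 0.00426, adjusted p = 0.516). Its relative Sesn1 was 83.8% of control (-0.26 ± 0.10, unadjusted p = 0.0386). Sesn3 was 0.18 ± 0.14 with overlapping groups, and differences between the sestrins were not tested. Ppm1a, a phosphatase that removes the LKB1 mark from AMPK, was 120% of control at its brightest probe (0.26 ± 0.09, limma unadjusted p = 0.0230) and -0.08 ± 0.11 at another. Camkk2, the calcium-dependent kinase that also phosphorylates AMPK, and Fnip1, a folliculin partner, had the highest p of the list, at 0.02 ± 0.18 and 0.01 ± 0.10.

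Of 11 tested AMPK-related kinases that LKB1 activates, Nuak1 passed. It read 7.44, 7.66 and 7.56 in control and 7.30, 7.22, 7.14 and 6.81 in Wnt4βKO arrays, 73.8% of control (-0.44 ± 0.13, limma unadjusted p = 0.00969, adjusted p = 0.595). Mark2, a polarity kinase, was 0.07 ± 0.16. Snrk was -0.04 ± 0.24 at its brightest probe, whereas a dimmer probe with the same accession gave -0.42 ± 0.10 with groups that did not overlap (limma unadjusted p = 0.00361). None of the 5 STE20 kinases that bind MO25 passed 0.05 in the same fit, with a range of -0.07 to 0.17; Stk39 and Stk26 had the highest p (-0.04 ± 0.20 and -0.02 ± 0.15).

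Of 21 tested AMPK substrates in metabolism, 2 passed. Txnip, an arrestin-like protein that restrains glucose uptake and is degraded once AMPK phosphorylates it, read 11.63, 11.38 and 11.41 in control and 10.25, 10.53, 10.91 and 10.75 in Wnt4βKO arrays. This was 55.0% of control (-0.86 ± 0.16, limma unadjusted p = 0.000909, adjusted p = 0.440), and its other probe gave -0.87 ± 0.13, the groups standing apart at both. The Txnip gene is also known to be induced by glucose. Pfkfb2, which makes the fructose 2,6-bisphosphate that stimulates glycolysis, was -0.51 ± 0.20 at its brightest probe (limma unadjusted p = 0.0365) with overlapping groups, and -0.15 ± 0.18 and -0.14 ± 0.12 at the others. Acaca, the acetyl-CoA carboxylase that is a classical AMPK substrate, was -0.04 ± 0.19, and Tbc1d1, which acts in glucose transporter traffic, -0.03 ± 0.16.

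Of 13 tested mTORC1 and autophagy genes, 3 passed. Becn1, a subunit of the lipid kinase that starts autophagosomes, read 7.09, 7.38 and 7.24 in control and 6.64, 6.92, 6.93 and 6.83 in Wnt4βKO arrays, 75.4% of control (-0.41 ± 0.11, limma unadjusted p = 0.00575, adjusted p = 0.527). Eif4ebp1, a translation repressor that mTORC1 phosphorylates, was 74.0% of control with overlapping groups (-0.43 ± 0.17, unadjusted p = 0.0370), and Mlst8, an mTOR subunit, 119% (0.25 ± 0.09, 0.0256). Ulk1 and Tsc2, both direct AMPK targets, were -0.06 ± 0.12 and -0.08 ± 0.15. A dimmer Tsc2 probe gave -0.31 ± 0.15 with overlapping groups (limma unadjusted p = 0.0827). Of 17 tested enzymes and carriers of adenine nucleotides and phosphagens, Aprt, which salvages adenine to AMP, read 8.92, 9.06 and 9.09 in control and 9.55, 9.16, 9.46 and 9.46 in Wnt4βKO arrays (0.39 ± 0.11, limma unadjusted p = 0.00777, adjusted p = 0.573). The adenine nucleotide carrier Slc25a4 and the AMP deaminase Ampd3 were -0.02 ± 0.14 and -0.01 ± 0.09.

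**Figure D5:**
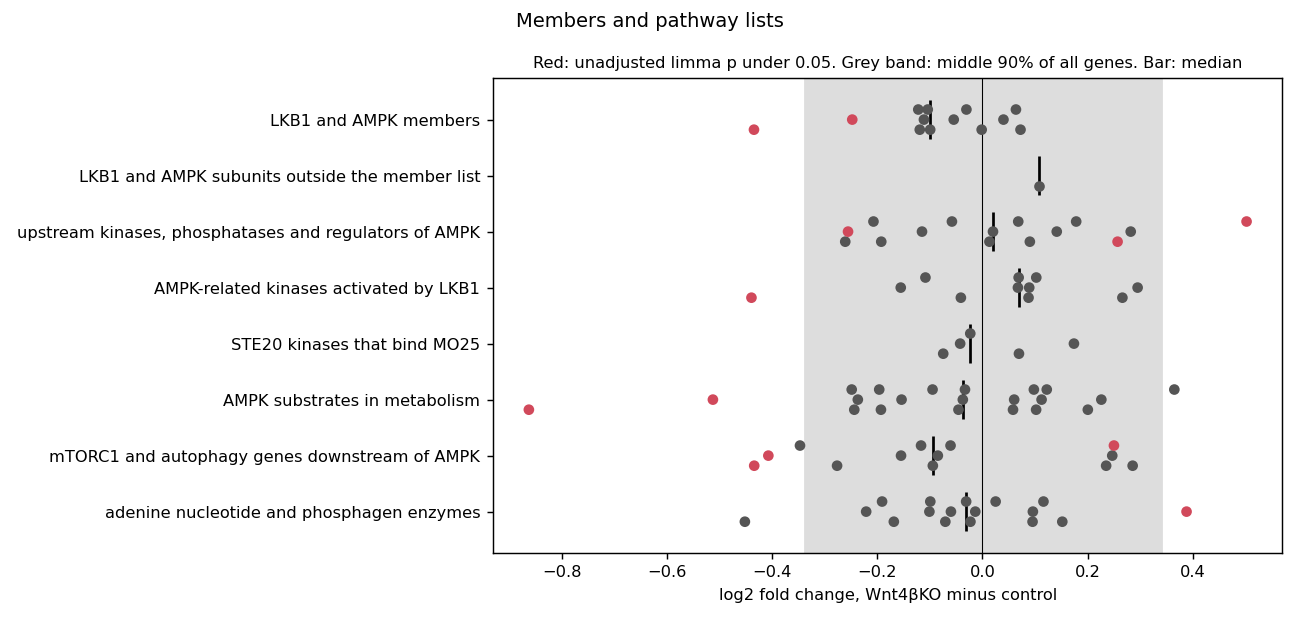
Log2 fold change of Wnt4βKO over control (x axis) for the 13 tested LKB1 and AMPK probes and for genes of 7 pathway lists, 1 probe a gene (y axis, offsets within a list only separate points), with a bar at each median and the middle 90% of all genes in grey. Red points, with an unadjusted p under 0.05, lie on both sides of 0, from Txnip at -0.86 to Sesn2 at 0.50.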

How the data were processed

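Islet RNA (50 ng) was labelled with Cy3 and hybridised to SurePrint G3 Mouse Gene Expression v2 8x60K arrays, 7 of them on 1 slide and in 1 scan. The deposited scanner files give spot intensity and local background intensity as Agilent Feature Extraction wrote them (12.0.1.1 per the file headers, 9.1 per the labels). The study's methods set 1 further control sample aside on quality, which is not analysed here. The deposited series table of log2 values was not used, since its columns did not correspond to the arrays of the same name.

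Following the study's methods, median signals were background-corrected with normexp (offset of 50), put on the log2 scale and quantile-normalized in R 4.3.3 with limma 3.58.1. Control spots were left out after correction and outlier spots were set to missing (65 values among the tested probes, 0 among the LKB1 and AMPK probes). Probes well above background on at least 3 arrays were tested with lmFit and eBayes, two-sided, with Benjamini-Hochberg adjustment over all 26153. Quantile normalization gives every array the same distribution, so that a change shared by most genes would not be seen, and the offset shrinks the fold changes of dim probes. Accessions of 58.3% of probes matched a gene in the RefSeq table, and promoters came from RefSeq (GRCm38.p6). Pairs of probes were compared by exact permutation with scipy 1.17.1. The fit was tested on simulated data. Alternatives covered background, scaling, filters, variance model, blocks, an acinar covariate and leaving out each array. The number of arrays limits the precision.

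Named were every probe of the 10 genes, Wnt4, from each list the genes past an unadjusted p of 0.05 (at most 4) and the 2 with the highest p, and 3 genes nearest in pattern to each Cab39l probe. Ins1, Muc1, Ptprc, Sesn3 and single list values beyond this rule were named after their values were seen. The genes, lists and alternatives were chosen with earlier results of these data known. Cab39l was picked by the study on these arrays and is not independent evidence.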

Additional observations from a re-analysis of the deposited data

Results flagged for a closer look

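At Strada probe 1, Wnt4βKO replicate 1 (7.66 on the log2 signal scale) stood apart from the other 3 Wnt4βKO arrays (7.45 to 7.47). Its gap to the nearest was 0.921 of the group's range, above Dixon's 95% critical value for 4 samples. Of 18 sets of 4 Wnt4βKO values examined, this was 1, and 0.9 would be expected at 1 in 20.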

How the results depend on the processing

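Of 20 alternatives, none turned the direction of Cab39l probe 2 or Prkag2. The 2 LKB1 and AMPK probes past an unadjusted p of 0.05 became 1 without background correction, with an offset of 0 and with a trended robust variance. The shares of all tested probes were then 6.83%, 6.55% and 6.49%, against 6.97%. They became 0 with processed signals at the 75th percentile, with median scaling and with the acinar covariate, where the shares were 6.82%, 2.95% and 2.43%. When single arrays were left out, 1 to 2 LKB1 and AMPK probes passed, being 1 (Prkag2) without control replicate 2 or 3. The share of all tested probes was then 5.51% to 8.53%. Groups that did not overlap numbered 1 with processed signals, 0 with median scaling and 2 to 3 when arrays were left out. For such groups the share over all tested probes is not given under these settings, and fewer arrays separate more easily at any probe. Neither these counts nor those past the unadjusted threshold are a result about the LKB1 and AMPK genes. Of all tested probes, 7 passed the adjusted threshold with processed signals, 2 with the acinar covariate and 2 to 5 without single arrays, against 4. Of all tested probes 771 passed the unadjusted threshold with median scaling, 636 with the acinar covariate and 2909 of 56605 with no filter, against 1822. The 10 pathway genes past it became 2 with median scaling, 2 with the acinar covariate and 6 to 12 without single arrays, the 6 being without Wnt4βKO replicate 4. The cause was not tested.

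No pairing by replicate number was seen: deviations of same-numbered arrays correlated at -0.13, 0.23 and -0.01, and 2 of 6 arrays were nearest to their own number. With 3 pairs, this check cannot exclude pairing. The study used control littermates, and its methods do not say which arrays shared a litter. The replicate block was fitted on the 6 arrays whose number occurs in both groups, so without Wnt4βKO replicate 1. With it, 2 probes passed the adjusted threshold and 1564 the unadjusted one. Of the LKB1 and AMPK probes 1 passed, Cab39l probe 2 (-0.45), Prkag2 being -0.22 (limma unadjusted p = 0.0725). Leaving out that array without a block also gave -0.22 for Prkag2 (limma unadjusted p = 0.0327). The deposited series table was not run as an alternative. Signals close to local background limit Prkaa2, Prkab1 probe 2, Prkab2, Cab39 probe 2 and both Cab39l probes.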
